A study of Homo sapiens with 3 samples.

Results

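IFITM1, IFITM2 and IFITM3, the interferon-induced transmembrane proteins that restrict viruses, were followed in single cells of an intestinal co-culture. The 3 genes were taken by symbol from the 33538 genes of the count matrices, and they were selected on earlier results of these data for their levels by cell line and with lipopolysaccharide (LPS), so their own levels are given as a description, without a test. Caco-2 and HT29, both human colon carcinoma lines, were grown together on Transwell inserts, which are porous supports on which the cells form a polarized layer. The control group had 2 untreated inserts, and in the LPS group 1 insert received 1 ng/ml of Escherichia coli LPS in the apical chamber from day 22 for 24 h. All 3 were harvested on day 23 and made into 1 single-cell 3′ library each. Both lines of a library shared a well, the medium and the cell isolation, and the single LPS library means that LPS and the well cannot be told apart.

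The 3 libraries held 5811 to 6838 barcodes with 24185467 to 33893707 unique molecular identifiers (UMIs, each standing for 1 captured RNA molecule), and 4652, 4991 and 4862 cells were kept in control 1, control 2 and the LPS library, at a median of 5457, 4101 and 3574 UMIs. Pairs of libraries shared 9 to 11 barcodes, and 0 of these had identical counts. Each cell was given a line from genes other than those described here, which put 613, 940 and 779 cells in the HT29 line and 3929, 3871 and 3960 in the Caco-2 line, with 110, 180 and 123 left unassigned. The 6 check genes of HT29, among them LCN2 and ANXA1, stood at 27.2 to 353 CPM (UMIs of the gene per 1000000 UMIs of the same cells) in the HT29 line and at 0.156 to 6.54 CPM in the Caco-2 line. Markers of other cell types were low. The 5 leukocyte markers summed to 24.9 to 26.5 CPM, mostly CD68, with MS4A1 at 0 in all 3 libraries and PTPRC at 0 in control 2. The 5 endothelial markers summed to 1.99 to 2.37 CPM, with KDR and CLDN5 at 0 throughout, and the 5 fibroblast markers, led by COL1A1 and LUM, to 16.7 to 21.6 CPM.

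Interferons bind receptors at the cell surface, whose JAK1 and TYK2 kinases activate transcription factors of the STAT family. With IRF9 these enter the nucleus and bind interferon-stimulated response elements in the promoters of antiviral genes. IFITM proteins are among the products. They sit in membranes, IFITM1 mostly at the cell surface and IFITM2 and IFITM3 mostly in endosomes, and hinder the fusion of enveloped viruses with the membrane. Intestinal epithelium is known to use them as part of its basal and induced defence.

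The genes lie side by side on chromosome 11 (GRCh38, GENCODE annotation): IFITM2 (ENSG00000185201) at chr11:303655-309397 and IFITM1 (ENSG00000185885) at chr11:310041-315272 on the plus strand, IFITM3 (ENSG00000142089) at chr11:319676-329475 on the minus strand. The 250 bases before the start sites that RefSeq (GRCh38.p14) gives for IFITM1 (chr11:313790-314039, plus strand) and IFITM3 (chr11:320861-321110, minus strand) are shown 5′ to 3′, because these genes are set beside the interferon-induced genes throughout. Capitals mark matches to GAAANNGAAA, the core of the interferon-stimulated response element, searched on both strands.
IFITM1: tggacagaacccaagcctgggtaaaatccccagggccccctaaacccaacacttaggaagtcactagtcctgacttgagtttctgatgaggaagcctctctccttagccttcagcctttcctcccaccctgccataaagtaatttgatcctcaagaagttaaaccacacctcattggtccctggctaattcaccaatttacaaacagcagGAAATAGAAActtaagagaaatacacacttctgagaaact
IFITM3: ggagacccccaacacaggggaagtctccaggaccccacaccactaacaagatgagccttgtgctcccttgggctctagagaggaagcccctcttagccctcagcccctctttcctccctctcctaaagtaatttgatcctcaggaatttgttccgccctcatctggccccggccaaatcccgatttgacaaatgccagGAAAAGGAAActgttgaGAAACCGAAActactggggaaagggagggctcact
The match of IFITM1 began 40 bases before the start, and those of IFITM3 began 52 and 35 bases before it. In the full 300-base windows, which run on past the start, both genes held 2 matches. In the 250 bases before the start alone, 3.02% of 35116 promoters held at least 1 match and 0.225% at least 2. Among 34 promoters of interferon-induced effector genes, 18 held at least 1 in these 250 bases and 12 at least 2. A match describes the letters and not a binding site.

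The members also resemble each other in sequence, which bears on how reads are assigned. Windows of 50 bases were taken from the last 400 bases of the transcript, the part a 3′ library reads. Of these, 17.4% of IFITM1, 24.5% of IFITM2 and 24.5% of IFITM3 occur elsewhere in the genome. All 61 such windows of IFITM1 occur in IFITM3, and 61 of the 86 of IFITM3 occur in IFITM1. With 90-base windows the shares were 6.75%, 2.25% and 6.75%. All 21 of IFITM1 were in IFITM3 and all 21 of IFITM3 in IFITM1, while the 7 of IFITM2 were in neither. Reads that fit several places are usually dropped, so the levels of the members relative to each other are uncertain.

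IFITM2 and IFITM3 were higher in the HT29 line than in the Caco-2 line, with their highest levels in a small cluster of mostly Caco-2-line cells described after the lines, and IFITM1 was low in both lines. IFITM3 stood at 37.7, 41.1 and 79.2 CPM in HT29-line cells of control 1, control 2 and the LPS library, from 144, 164 and 250 UMIs. In the Caco-2 line it stood at 4.55, 11.3 and 4.92 CPM. IFITM2 stood at 27.5, 28.1 and 41.8 CPM in the HT29 line and at 3.25, 5.60 and 2.58 CPM in the Caco-2 line. The HT29 line was above the Caco-2 line in each library for both genes, at 8.30, 3.64 and 16.1 times its level for IFITM3 and 8.46, 5.02 and 16.2 times for IFITM2. Over the 2 controls the HT29 line had 39.4 ± 2.40 CPM of IFITM3 and 27.8 ± 0.405 CPM of IFITM2 (SD, n = 2), and the Caco-2 line 7.92 ± 4.78 and 4.43 ± 1.66 CPM.

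IFITM1 was represented by 113 UMIs in 14505 cells, 97 of them in the Caco-2 line. Its HT29-line values were 0.262, 1.76 and 1.27 CPM from 1, 7 and 4 UMIs, and its Caco-2-line values 1.45, 1.34 and 2.04 CPM from 37, 26 and 34 UMIs. The exact 95% Poisson interval of the HT29 to Caco-2 ratio, which like all intervals here covers counting error only, ran from 0.00446 to 1.07 in control 1, from 0.482 to 3.11 in control 2 and from 0.160 to 1.74 in the LPS library. A difference between the lines was not detectable at this depth for IFITM1.

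**Figure D1:**
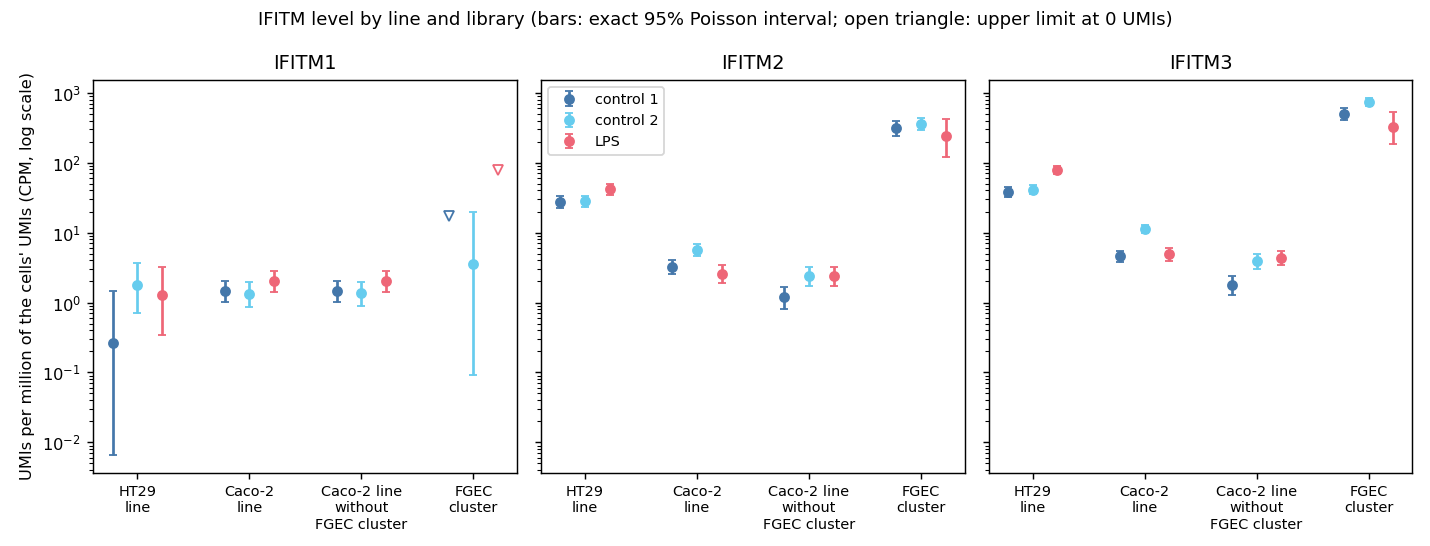
CPM of each member on a log axis in the HT29 line, the Caco-2 line, the Caco-2 line without the FGEC cluster and the FGEC cluster (76 cells, described in the text). Each point is 1 library, bars are exact 95% Poisson intervals and open triangles are upper limits at 0 UMIs. IFITM2 and IFITM3 were higher in the HT29 line than in the Caco-2 line in every library and highest in the FGEC cluster, and IFITM1 was low in both lines.

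The Caco-2 values of IFITM2 and IFITM3 came largely from 1 small cluster of cells. Clusters were made without the members, and cluster 7 had all 5 raised markers of the FGEC, the study's name for fetal genes expressing cells, with FABP7, PTN and XAGE2 leading. It held 25, 42 and 9 cells of control 1, control 2 and the LPS library, of which 49 carried the Caco-2 line, 4 the HT29 line and 23 neither. In these 76 cells IFITM3 stood at 496, 744 and 324 CPM (exact 95% Poisson intervals 406 to 599, 646 to 852 and 182 to 535) and IFITM2 at 310.5, 356 and 238 CPM. A UMI of IFITM3 was found in 59 of them and a UMI of IFITM2 in 44, against 1 cell for IFITM1. The cells of the LPS library were 9, with 15 UMIs of IFITM3, so the lower value there has a wide interval.

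The cluster held 61.2% and 65.9% of the Caco-2-line UMIs of IFITM3 in the controls and 11% in the LPS library. Without it the Caco-2 line had 1.77, 3.89 and 4.39 CPM of IFITM3 and 1.18, 2.39 and 2.40 CPM of IFITM2, so the LPS library, which was below control 2 with the cluster, was then at or above both controls. The HT29 line without it had 31.4, 40.5 and 79.2 CPM of IFITM3 and 25.6, 27.1 and 41.8 CPM of IFITM2. The lines then differed 17.7-, 10.4- and 18.0-fold in IFITM3 and 21.6-, 11.4- and 17.4-fold in IFITM2.

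Free RNA in the droplets sets a floor under the remaining Caco-2 level. The 6 HT29 check genes stood in Caco-2-line cells outside the FGEC cluster at 0.356% to 1.89% of their HT29-line level. IFITM2 stood at 4.62%, 8.79% and 5.75% and IFITM3 at 5.65%, 9.62% and 5.54%. The lower bounds of the intervals, 2.96% to 7.21%, were above that range. These are averages over the line, and not every cluster was above it. Enterocyte-like cells had 0.253, 0.223 and 0.225 CPM of IFITM2, within that range of the 25.6, 27.1 and 41.8 CPM of the HT29 line. The check genes are genes of the HT29 line, so they do not track free RNA from the FGEC cluster. That cluster held 31.8%, 35.7% and 5.37% of the IFITM2 UMIs of a library and 37.3%, 44.9% and 4.03% of those of IFITM3. How much of the level in the Caco-2-line cells outside it was free RNA was not tested. The share of those Caco-2-line cells with a UMI was 0.818%, 1.09% and 0.759% for IFITM3 and 0.741%, 1.07% and 0.986% for IFITM2, at median depths of 5467.5, 4185 and 3571 UMIs. It lay within the range of the check genes, 0.0521% to 2.50%, but these were not matched to the members in HT29-line level. In control 2 TCN1, at 38.2 CPM in the HT29 line, was found in 0.0521% of those cells and ANXA1, at 353 CPM, in 2.50%. The share by itself is not read as expression. The UMIs of IFITM3 were unevenly spread: 3, 6 and 9 of these cells had 3 or more in control 1, control 2 and the LPS library. Together they held 26.7%, 38.7% and 67.1% of its UMIs there, while no cell had more than 2 UMIs of IFITM2.

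**Figure D2:**
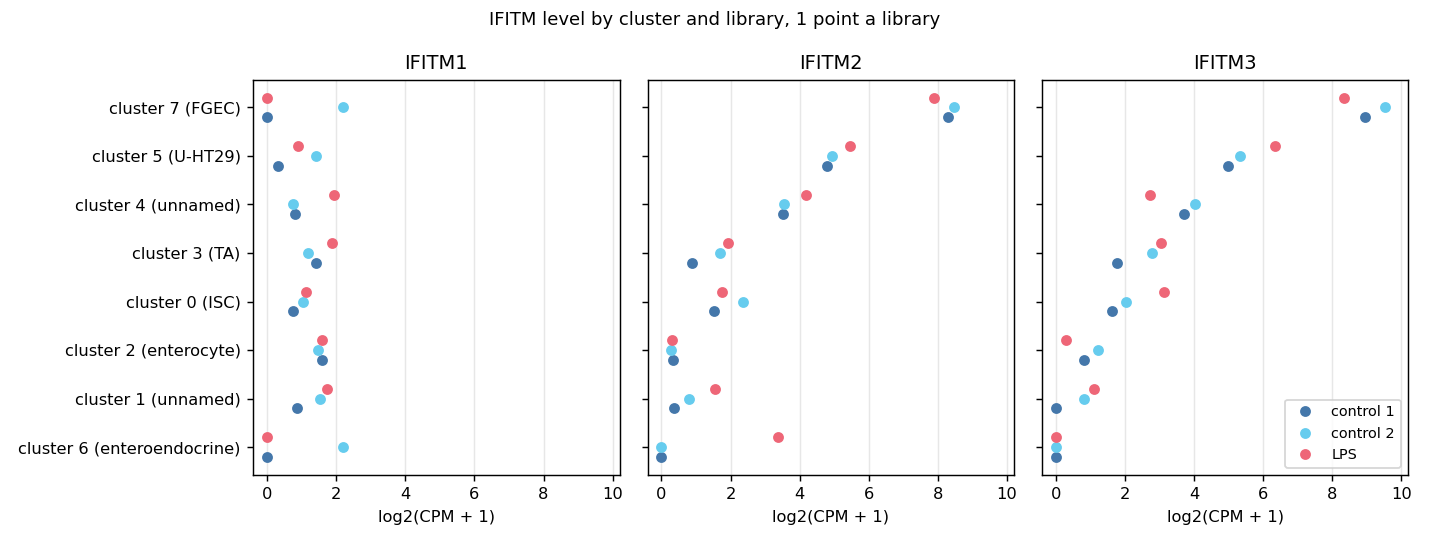
Level of each member as log2(CPM + 1) in the 8 clusters, with 1 point for each library and the clusters ordered by IFITM3. FGEC and U-HT29 lie to the right for IFITM2 and IFITM3 in all 3 libraries, and enterocyte-like cells lie near 0.

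Across the other clusters the order followed the line. U-HT29 (2542 cells, 2269 of them of the HT29 line) took the study's name for undifferentiated HT29 cells from its markers. SST, a hormone gene, headed its leading genes, so the name may not cover all of its cells. This cluster had 30.9, 39.6 and 80.3 CPM of IFITM3 and 26.8, 29.8 and 43.0 CPM of IFITM2. Cluster 4, unnamed, with SPRR1B and SLPI among its leading genes, came next at 12.0, 15.3 and 5.66 CPM of IFITM3 and 10.5, 10.6 and 17.0 CPM of IFITM2. Its IFITM3 value in the LPS library was below those of the TA- and ISC-like cells. It mixed 48 HT29-line, 274 Caco-2-line and 90 unassigned cells and had a median of 7690 UMIs, the highest of the 8 clusters. The Caco-2-line clusters were lower. Transit amplifying (TA)-like cells had 2.40, 5.93 and 7.26 CPM of IFITM3 and stem (ISC)-like cells 2.09, 3.11 and 7.72 CPM. The controls gave 4.17 ± 2.49 and 2.60 ± 0.717 CPM (SD, n = 2), so these neighbours did not differ beyond their spread. The ISC-like value depended on the clustering. At a Leiden resolution of 0.8 the cluster named ISC, of 746 cells, had 0, 0 and 1 UMIs of IFITM3. An unnamed cluster of 1840 cells, led by DKK1 and CST1, had 3.53, 8.57 and 11.3 CPM there. Enterocyte-like cells had 0.759, 1.34 and 0.225 CPM of IFITM3 and 0.253, 0.223 and 0.225 CPM of IFITM2, from 13 and 4 UMIs in 3573 cells. Cluster 1, unnamed, with S100A9 and CCL20 among its leading genes, had 5 UMIs of IFITM3 in 2192 cells and overlapped with the enterocyte-like values. Enteroendocrine-like cells had 0 UMIs of IFITM3 in 196 cells, which allows up to 4.65 CPM. IFITM1 did not follow this order. Its control means lay between 0.709 and 1.90 CPM in all 8 clusters, and 33 of its UMIs were in enterocyte-like cells, more than their 4 of IFITM2.

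In the LPS library both HT29-line members stood above the 2 controls. IFITM3 was 2.10 times control 1 (interval 1.70 to 2.59) and 1.92 times control 2 (1.57 to 2.36), and IFITM2 1.52 times (1.17 to 1.98) and 1.49 times (1.15 to 1.93). The controls differed from each other by less, with ratios of control 2 to control 1 of 1.09 (0.866 to 1.37) for IFITM3 and 1.02 (0.775 to 1.35) for IFITM2. Without the FGEC cluster these were 1.29 (1.01 to 1.65) and 1.06 (0.799 to 1.41). The LPS library was then 2.52 times control 1 and 1.96 times control 2 for IFITM3. These intervals treat UMIs as independent and do not cover the spread between cells. In the HT29 line 15, 15 and 29 cells with 3 or more UMIs of IFITM3 held 56.2%, 51.8% and 57.2% of its UMIs. With 1 LPS library no p-value can be given. A gene was called higher where the LPS library exceeded the higher control by more than 1.5-fold and lower where it fell below the lower control by more than 1.5-fold, among genes with a mean of at least 10 CPM. This called 88 of 7947 genes higher in the HT29 line, 1.11%, and 26 lower, 0.327%. IFITM3 was among the 88 and IFITM2 missed by little, but the members were chosen on this contrast and nothing is read from it. TMM scaling in place of CPM made the counts 54 higher and 45 lower, leaving out control 1 or control 2 gave 265 and 423 higher and 102 and 184 lower, and with no minimum level 798 were higher and 668 lower. The share of HT29-line cells with a UMI of IFITM3 was 10.9%, 8.62% and 14.8%, and 5.22%, 3.83% and 7.57% after thinning each cell to 1500 UMIs. For IFITM2 it was 13.7%, 8.62% and 12.8%, and 3.43%, 3.62% and 5.39% after thinning. Control 1, the deepest library, had the highest unthinned share of IFITM2, and the thinned shares of IFITM2 had the order of its CPM values. For IFITM3 control 1 was above control 2 in the thinned share and below it in CPM.

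HT29-line cells were also split by their UMIs of IFIT1, IFIT2 and IFIT3, which encode cytosolic RNA-binding proteins that interferon strongly induces. This split was chosen after the values had been seen, and it leaves out the FGEC cluster. The IFIT genes were themselves called higher in the LPS library, and cells of a library are not replicates, so the values are a description only. HT29-line cells with 0 UMIs of the 3 IFIT genes had 23.6, 24.8 and 24.1 CPM of IFITM3 in control 1, control 2 and the LPS library, a range well inside the counting intervals. Cells with 1 such UMI had 103, 123 and 162 CPM. Those with 2 or more had 84.5 (40.5 to 155), 330.1 (226 to 466) and 394 (329 to 468) CPM, from 19, 18 and 63 cells. The cells with any IFIT UMI were 9.84%, 8.73% and 17.7% of the line and held 32.8%, 45.3% and 76.4% of its IFITM3 UMIs.

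IFITM2 followed less steeply. Cells with 0 IFIT UMIs had 25.9, 23.4 and 27.8 CPM, cells with 1 had 21.2, 39.0 and 54.9 CPM, and cells with 2 or more had 25.4, 124 and 131 CPM. In control 1 the 3 classes overlapped. Of the 12 IFITM1 UMIs in the HT29 line, 7 were in cells with 2 or more IFIT UMIs, in which it reached 0, 41.3 and 9.16 CPM. Such cells were somewhat deeper than those with none (4720 against 3416 UMIs at the median in the LPS library), and the part of depth was not tested.

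**Figure D3:**
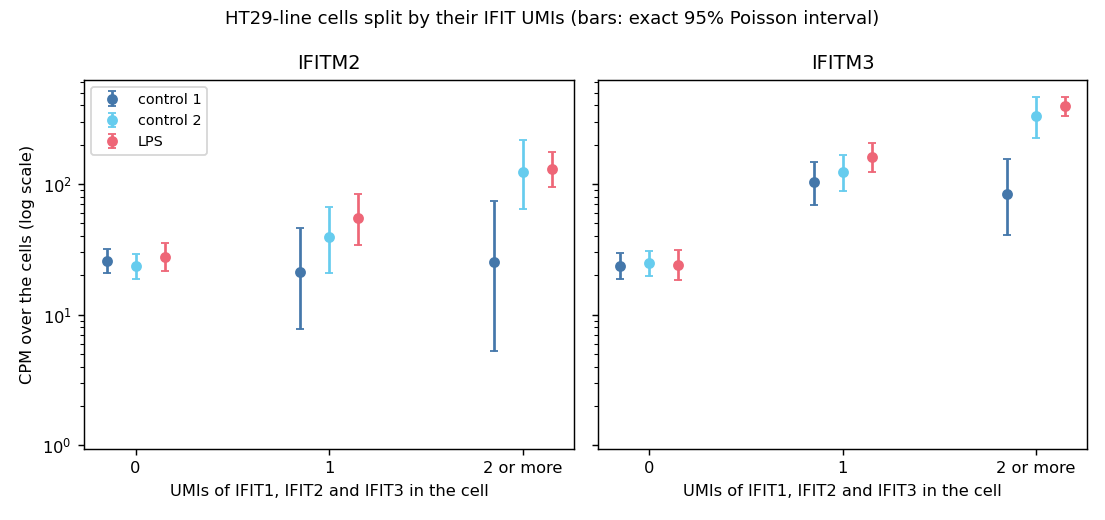
CPM of IFITM2 and IFITM3 on a log axis in HT29-line cells with 0, 1 and 2 or more UMIs of IFIT1, IFIT2 and IFIT3, outside the FGEC cluster. Points are libraries and bars exact 95% Poisson intervals. At 0 IFIT UMIs the 3 libraries coincide, between 23.6 and 24.8 CPM of IFITM3, and at 1 or more IFITM3 is higher in each of them.

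In the Caco-2 line the same split gave small numbers. Outside the FGEC cluster 3.40%, 5.02% and 4.30% of its cells had an IFIT UMI, at median depths of 5467.5, 4185 and 3571 UMIs. The share with 2 or more was 0.230%, 0.521% and 0.759%. By CPM over the whole line each IFIT gene was highest in the LPS library. IFIT1 stood at 2.08, 5.09 and 6.42 CPM, IFIT2 at 2.31, 2.67 and 3.06 CPM and IFIT3 at 2.90, 3.90 and 5.40 CPM. The 9, 20 and 30 cells with 2 or more had 47.5, 39.3 and 49.3 CPM of IFITM3 from 4, 5 and 11 UMIs and 59.4, 15.7 and 8.96 CPM of IFITM1 from 5, 2 and 2 UMIs, against 1.48, 2.98 and 3.38 CPM of IFITM3 and 1.23, 1.21 and 1.91 CPM of IFITM1 in cells with none. IFITM2 was at 0 UMIs in them in all 3 libraries. The 76 cells of the FGEC cluster had 0 UMIs of IFIT1, IFIT2 and IFIT3 together with the highest IFITM2 and IFITM3 levels of the 8 clusters. At their depth 0 UMIs allow up to 5.55 CPM. Enteroendocrine-like cells had 1, 2 and 0 UMIs of the IFIT genes, so few IFIT UMIs were not particular to the FGEC cluster.

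Within the HT29 line IFITM2 and IFITM3 were often found in the same cells. A UMI of IFITM2 was present in 47.8%, 35.8% and 35.7% of cells with IFITM3 and in 9.52%, 6.05% and 8.89% of cells without it. Across cells Pearson's r of log2 values was 0.43, 0.33 and 0.34 and Spearman's rho 0.36, 0.30 and 0.30 (613, 940 and 779 cells). Each value was taken within a library, over cells that vary in depth, and the part of depth was not tested. In the Caco-2 line outside the FGEC cluster r was 0.04, 0.18 and 0, with 3, 5 and 1 cells holding both.

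The pathway around the members was tested between the lines with edgeR's quasi-likelihood test on UMIs summed per line and library, with the library as a block and Benjamini-Hochberg adjustment over 14475 genes. The lines differ widely: 4944 genes were higher in the HT29 line, 34.2%, and 5474 were lower, 37.8%, with a median log2 fold change of -0.07 over all genes. The 3 libraries are separate wells, but 1 passage of each line was used.

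Interferon genes themselves were almost absent. Of 8 ligands, IFNB1, IFNK and IFNG had 0 UMIs and IFNA1, IFNL1, IFNL2 and IFNL3 1 to 9 UMIs in the cells with a line. IFNE, an interferon made by epithelia, had 18 UMIs and reached 1.83, 1.00 and 0.95 CPM in the HT29 line. Of 9 receptors and kinases, 4 were higher and 3 lower in the HT29 line, near the background. JAK2, the kinase of the interferon-gamma receptor, had a log2 fold change of 3.60 ± 0.42 (SE) with an adjusted p of 5.33e-07, and JAK1 one of 1.10 ± 0.10 with an adjusted p of 2.56e-08. TYK2, the partner of JAK1 at the type I receptor, was lower by a log2 fold change of -0.96 ± 0.22 with an adjusted p of 8.48e-04. In the LPS library none of the 4 list members over 10 CPM in the HT29 line was called. Over all genes of that line 1.11% were called higher and 0.327% lower.

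Among 8 interferon transcription factors 5 were higher in the HT29 line and IRF2 was lower, against 34.2% and 37.8% of all genes tested. IRF7, which amplifies type I interferon responses, stood at 65.0, 65.0 and 72.8 CPM in the HT29 line and 13.0, 11.1 and 13.4 CPM in the Caco-2 line (log2 fold change 2.37 ± 0.10, adjusted p 1.12e-12). IRF1 and IRF3 were higher by 1.36 ± 0.14 and 1.12 ± 0.09. STAT2, which joins IRF9 in the complex that binds the response element, did not pass between the lines (adjusted p 0.347) and was called higher in the HT29 line of the LPS library, at 11.5, 11 and 24.1 CPM. In the Caco-2 line it stood at 15.8, 14.7 and 18.4 CPM and was not called.

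The interferon-induced effectors were nearly all higher in the HT29 line, and a part of them was called higher in its LPS library. Of 42 genes 41 were tested between the lines. In the HT29 line 39 were higher, against 34.2% of all genes tested, with a median log2 fold change of 2.46. UBE2L6, the conjugating enzyme for ISG15, was lower, and HERC5, its ligase, did not pass. The 3 with the largest changes were IFI44L (5.85 ± 0.27, adjusted p 1.90e-12), IFI44 (5.69 ± 0.20, adjusted p 3.71e-14) and OAS2, a sensor of double-stranded RNA (5.30 ± 0.38, adjusted p 8.99e-10). In the LPS library 22 of 33 effectors over the minimum were called higher in the HT29 line and 0 lower. Of all 7947 genes 1.11% were called higher and 0.327% lower. The median log2 ratio of the effectors was 0.96 against 0.04 over all genes. The minimum is on a mean that includes the LPS library, and 7 of the 22, among them IFIT2, OAS2 and USP18, passed it only through their LPS value. With the minimum on the controls alone, chosen after seeing the data, 15 of 26 were called higher and 0 lower, with a median log2 ratio of 0.80, where 60 of 7861 genes (0.763%) were called higher and 35 (0.445%) lower. Of the 6 effectors with control means over 100 CPM, ISG15 alone was called. IFIT1 stood at 20.7, 27.3 and 100.4 CPM, IFIT2 at 7.08, 6.52 and 47.8 CPM, and MX1, a GTPase that blocks influenza virus, at 16, 16.6 and 51.9 CPM. ISG15, a ubiquitin-like modifier, stood at 597, 534 and 1001 CPM. The antiviral enzyme RSAD2, under the minimum, stood at 1.31, 1.51 and 18.1 CPM. ISG20 (143, 142 and 126 CPM) and GBP2 (12.3, 17.1 and 11.7 CPM) stood below both controls.

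In the Caco-2 line 0 of 13 effectors over the minimum were called in either direction, where 7 of 7993 genes (0.0876%) were called higher and 6 (0.0751%) lower. Without control 1 or control 2 these were 19 and 157 higher and 11 and 58 lower. Their median log2 ratio was 0.07, equal to that over all genes. With no minimum level 2 were called, and without control 2, 3. With the minimum on the controls alone 0 of 12 were called, where 5 of 7878 genes (0.0635%) were called higher and 6 (0.0762%) lower. ISG15 stood at 89.7, 74.9 and 80.5 CPM there and IFIT1 at 2.08, 5.09 and 6.42 CPM. Most effectors called in the HT29 line, IFIT1 among them, were under the minimum in the Caco-2 line. The counts of the 2 lines therefore cover different genes. Most effectors under the minimum stood above their control mean in the LPS library, on few UMIs, such as IFIT3 at 1.59 times and OAS2 at 3.44 times. SAMD9L, TRIM22, HERC5, IFI16 and PSMB9 stood below theirs. By cluster the 42 effectors summed to 3210.3, 3357 and 5035 CPM in U-HT29 and to 476 to 734 CPM in the ISC-, TA- and enterocyte-like clusters and cluster 1. They summed to 1566, 1657 and 1644 CPM in the FGEC cluster, lower than in U-HT29 although IFITM2 and IFITM3 were higher. Cluster 4 was near the FGEC cluster at 1209, 1498 and 1508 CPM, and enteroendocrine-like cells had 504, 699 and 449 CPM.

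**Figure D4:**
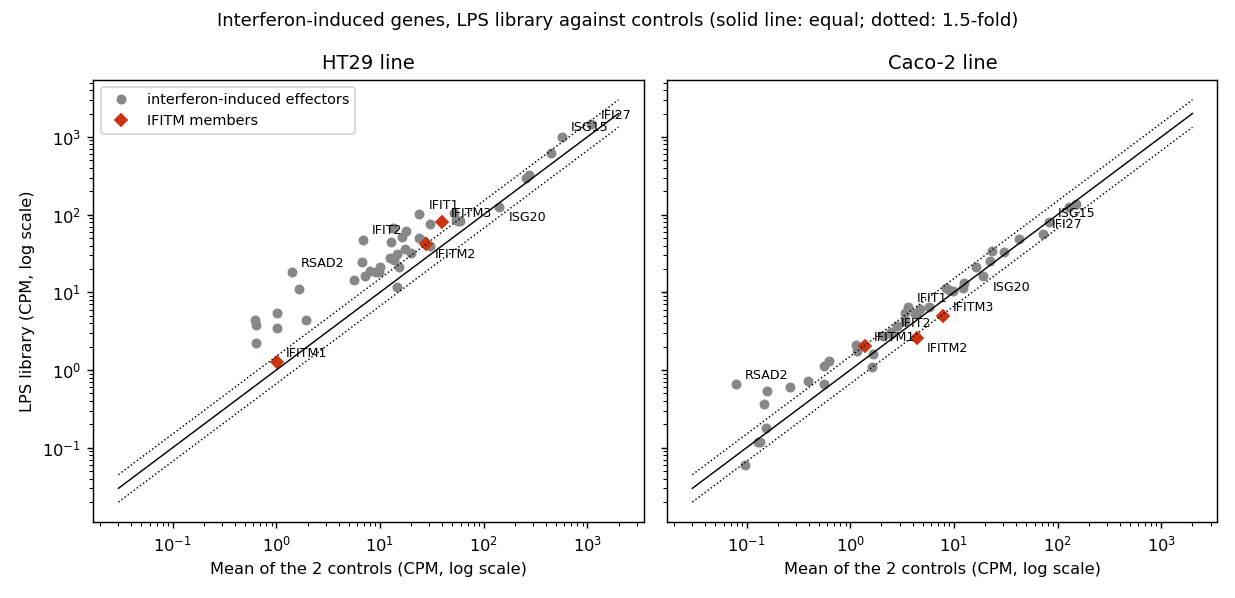
LPS library against the mean of the 2 controls, both in CPM on log axes, for 42 interferon-induced effectors (grey) and the 3 members (red), in the HT29 line (left) and the Caco-2 line (right). The solid line marks equal levels and dotted lines 1.5-fold. In the HT29 line most effectors and IFITM3 lie above the upper dotted line, IFIT2 at 47.8 against a control mean of 6.80 CPM; in the Caco-2 line the effectors over 10 CPM lie between the dotted lines.

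Genes that act with IFITM proteins or on the same step had smaller differences between the lines at the median than the effectors. Of 10 listed, LY6E is also an effector and 9 were tested. In the HT29 line 6 were higher and 2 lower, against 34.2% and 37.8% of all genes tested. The median log2 fold change of the 9 was 0.48. In the HT29 line of the LPS library 0 of 8 were called, where 1.11% of all genes were called higher and 0.327% lower. The list is too short to be set apart from that share. ZMPSTE24, a protease that works with IFITM proteins, stood at 31.7, 24.3 and 32.6 CPM in the HT29 line and 13.4, 12.0 and 14.6 CPM in the Caco-2 line. CD81, a tetraspanin that associates with IFITM1 at the surface, was higher by 1.15 ± 0.07 (adjusted p 1.62e-10). NEDD4, the ligase that ubiquitinates IFITM3, was lower by -1.37 ± 0.15 (adjusted p 2.12e-07), and so was MARCH8, a membrane ligase that restricts viral glycoproteins (-1.33 ± 0.20, adjusted p 1.46e-05).

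Genes for sensing LPS were scarce. TLR4, the LPS receptor, had 10 UMIs in the cells with a line and its cofactor LY96 had 7. CD14, which hands LPS to them, stood at 22.3, 11.5 and 11.7 CPM in the HT29 line and at 2.08, 3.19 and 2.88 CPM in the Caco-2 line (log2 fold change 2.44 ± 0.25, adjusted p 1.24e-07). Of the 15 genes in the list, 12 were tested. In the HT29 line 7 were higher and 3 lower, against 34.2% and 37.8% of all genes tested. TLR2 was lower by -3.95 ± 0.48 (adjusted p 9.58e-07). None of 5 over the minimum in the HT29 line was called in the LPS library, and their median log2 ratio was -0.44. Over all genes 1.11% were called higher there and 0.327% lower, so the absence of calls does not set the list apart. CXCL8, a target of NF-kB, stood at 19.7, 7.53 and 5.70 CPM in the HT29 line, and NFKBIA, the inhibitor it induces, at 75.8, 52.9 and 47.5 CPM. The LPS library was below both controls for both genes. Other targets in the list went in both directions there. CXCL1 and CCL20 were also below both controls, and RELB lay between them. TNFAIP3 (3.41, 3.26 and 6.02 CPM), ICAM1 (6.03, 7.28 and 8.87 CPM) and BIRC3 (7.34, 7.78 and 9.18 CPM), all under the minimum, were above both.

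The neighbours of the members on chromosome 11 went in both directions. Of 12 genes, 11 were tested. In the HT29 line 7 were higher and 2 lower, against 34.2% and 37.8% of all genes tested, and 2 did not pass. The median log2 fold change of the 11 was 0.30. HRAS was higher by 2.12 ± 0.10 (adjusted p 2.09e-12) and RNH1 by 1.17 ± 0.08 (adjusted p 8.12e-10), and B4GALNT4, which lies close to IFITM3, was lower by -3.53 ± 0.23 (adjusted p 2.95e-10). In the LPS library 0 of 9 over the minimum were called in the HT29 line, where 1.11% of all genes were higher and 0.327% lower. Of the other family members, IFITM5, a bone gene, had 0 UMIs, and IFITM10 stood at 3.41, 6.02 and 2.85 CPM in the HT29 line and 0.705, 0.308 and 0.540 CPM in the Caco-2 line (2.88 ± 0.42, adjusted p 8.83e-06).

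Over 23 sums of at least 20 cells, 1 for each cluster and library, the genes most like IFITM3 in log2(CPM + 1) included ARHGAP29 (Pearson's r 0.95), LY6E (0.94) and IFITM2 (0.93). For IFITM2 they included ARHGAP29 (0.95), IFITM3 (0.93), SLC44A2 (0.89) and PRSS23 (0.88), out of 5701 genes compared. The FGEC sums weigh heavily in these values. Without them IFITM3 was led by LRP8 and FASN (each 0.94) and IFITM2 by TATDN1, ST3GAL1 and RNASET2 (each 0.94). For IFITM1 the highest were MPP5 and GALNT1 (each 0.72), which rest on few UMIs.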

How the data were processed

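Single-cell RNA was measured in 3 libraries. Per the file headers, the deposited UMI counts per gene and barcode came from Cell Ranger 3.1.0, and the authors aligned reads to GRCh38, with no normalization. The members and lists were chosen with earlier results of these data known. Cells needed 2250 UMIs and 770 genes in control 1, 1500 and 700 in control 2 and, as none is stated, in the LPS library, and at most 20% mitochondrial UMIs. The 6% with the highest Scrublet score were removed, since the automatic threshold marked 0, 0 and 1 cells. A mixture of 2 Gaussians on 146 HT29 and 265 Caco-2 genes of the study's lists, partly made on these libraries, gave the line at a posterior of 0.95. Clusters used scanpy 1.11.5 (3000 variable genes, 50 components, 15 neighbours, Leiden resolution 0.5, no integration). A cluster was named from 3 or more raised markers, and U-HT29 needed mostly HT29-line cells, a condition set after clusters were seen. edgeR 4.0.16 and DESeq2 1.42.0 ran in R 4.3.3. The SE of a log2 fold change was derived as its absolute value over the square root of the quasi-likelihood F statistic. Of each list, the 3 genes with the largest absolute log2 fold change among those past 0.05 are named, with others of the lists, and for each member genes among the 5 most like it. Some genes that this rule selects are not reported here. UMIs count molecules, so no length scaling was made.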

Additional observations from a re-analysis of the deposited data

Results flagged for a closer look

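IFITM2 moved in opposite directions in the 2 lines. In the HT29 line the LPS library stood at 1.5 times the mean of the 2 controls and above both, and in the Caco-2 line at 0.583 times and below both. The difference was not tested, since there was 1 LPS library. Outside the FGEC cluster the Caco-2 value was 1.35 times the mean of the controls, at 2.40 CPM against 1.18 and 2.39 CPM. The cluster had 25, 42 and 9 cells in control 1, control 2 and the LPS library.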

How the results depend on the processing

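Of 192 alternative values over 30 results, 148 stayed within the spread of the controls or 1.5 times the count and 44 moved. The control means of the members without either control could only stay within that spread, so those values say nothing about stability. LPS ratios that no rule called turned direction in the Caco-2 line without the FGEC cluster (IFITM2 from 0.583 to 1.35 and IFITM3 from 0.621 to 1.55) and without control 2 (IFITM3 to 1.08), and for IFITM1 in the HT29 line without control 1 (from 1.26 to 0.721) and at the minimums of control 1 (to 0.981). Without the FGEC cluster the control means became 26.4 CPM of IFITM2 and 35.9 CPM of IFITM3 in the HT29 line and 1.78 and 2.83 CPM in the Caco-2 line, and the LPS ratios 1.59 and 2.20 in the HT29 line. This alternative was chosen after seeing the data. With the study's longer line lists, the HT29 control means were 28.6 CPM of IFITM2 and 33.9 CPM of IFITM3 and the LPS ratios 1.55 and 2.38. A posterior of 0.5 gave 29 CPM and a ratio of 1.43 for IFITM2. With no cells removed as doublets the HT29 ratio of IFITM2 was 1.43, and IFITM1 in the Caco-2 line had 1.49 CPM and a ratio of 1.32. TMM factors gave 1.43 for IFITM2 in the HT29 line and 1.37 for IFITM1 in the Caco-2 line.

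Leaving out either control gave LPS ratios of 0.721 to 4.83 for IFITM1 in the HT29 line and 0.435 to 1.08 for IFITM3 in the Caco-2 line. It also gave 265 to 423 genes higher and 102 to 184 lower in the HT29 line, and 19 to 157 higher and 11 to 58 lower in the Caco-2 line, with 0 to 3 effectors higher there. TMM factors gave 54 higher and 45 lower in the HT29 line and 3 higher in the Caco-2 line. With no minimum level 798 were higher and 668 lower in the HT29 line and 1054 higher and 628 lower in the Caco-2 line, with 2 effectors higher in the Caco-2 line. Effectors higher in the HT29 line between lines numbered 36 to 40, and those higher in the LPS library there 15 to 30, under all alternatives. No paired analysis was possible because control and LPS share 1 replicate number alone, and without the library block 36 effectors were higher in the HT29 line. The causes of these moves were not tested. Depth limits IFITM1 most, at 36 to 39 UMIs in the kept cells of a library.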

Other observations

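At a Leiden resolution of 0.8 a cluster of 235 cells separated, led by SST, FCGBP, MUC2 and GCG. SST and GCG encode gut hormones of enteroendocrine cells, and FCGBP and MUC2 are mucus genes of goblet cells. All 5 goblet markers were raised, so the naming rule gives goblet. With hormone genes among its leading genes, the cluster is not called by that name here. It held 76 HT29-line, 76 Caco-2-line and 83 unassigned cells, so the line was least clear here. IFITM2 stood at 44.8, 40.7 and 24.8 CPM in control 1, control 2 and the LPS library, from 36 UMIs in all, and IFITM3 at 2.98, 14.5 and 21.2 CPM, from 12 UMIs. In the remaining U-HT29 cluster of 2305 cells the order was the opposite, with 32.3 CPM of IFITM2 and 51.7 CPM of IFITM3 over the 3 libraries. IFITM1 had 0 UMIs in the cluster with SST and MUC2.

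The cells left without a line had 29.3, 57.5 and 50.2 CPM of IFITM2 and 34.4, 79.0 and 66.9 CPM of IFITM3. Of these cells 23 were in the FGEC cluster.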
